A study of Mus musculus with 6 samples.

Results

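Heme is made by a chain of enzymes, and 8 genes for these enzymes, together with Slc25a38, a carrier that brings glycine into mitochondria, were followed here in mouse bone marrow cells. The 9 genes were taken by name and in pathway order, not by a cut on their values, but earlier results of these data were known. All 9 are among the 20097 genes listed in the deposited data, and all 9 were among the 15410 genes tested. Of the 9 genes, Alas2, the first enzyme of the pathway in red cell precursors, fell 8.12-fold in the libraries labelled Runx1 KO. None of the other 8 passed the test. Thus 11.1% of the 9 genes passed, where 21.9% of all genes tested did. Alas1, the housekeeping form of the first enzyme, fell just short (limma adjusted p 0.0513). It passed in 6 of 11 other settings that kept all libraries.

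The cells were c-Kit+ bone marrow cells, a fraction that carries the receptor encoded by Kit and is rich in blood stem and progenitor cells. The study has 3 WT libraries and 3 labelled Runx1 KO, that is, knocked out for Runx1, a transcription factor gene of blood development. The labels give no strain, age, sex, treatment or allele, and do not say how or in which cells Runx1 was disrupted or whether each library came from 1 animal or a pool. P-values therefore measure the spread between these libraries, which may be in part technical. The title of the study names RUNX1 and GATA2 in blood development, and the question asked of these genes is whether their messenger RNA differed between the genotypes.

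Heme synthesis starts in mitochondria, where 5-aminolevulinate synthase joins glycine and succinyl-CoA. Most cells use the housekeeping form of this enzyme, encoded by Alas1, which heme itself represses. Erythroid precursors use a second form, encoded by Alas2, which is switched on by GATA1 as these cells mature and whose translation depends on iron. The middle steps take place in the cytosol and the last steps back in mitochondria, where ferrochelatase puts iron into the ring. Red cell precursors use most of this heme for hemoglobin, while myeloid cells need it for enzymes such as myeloperoxidase and the phagocyte oxidase.

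Values are normalised read counts: the reads of a gene, scaled by 1 factor per library. The libraries held 23297526 to 26793380 recovered reads. The targeted gene went against its label. Runx1 had 3031, 2799 and 3497 normalised reads in WT replicates 1 to 3 and 6648, 6720 and 5830 in Runx1 KO replicates 1 to 3, a log2 change of 1.04 (SE 0.10, limma adjusted p 0.00163). A total per gene does not tell which exons the reads came from, so the groups are named by their labels, and every direction below runs from the label WT to the label Runx1 KO. Kit, the gene that defines the sorted cells, was present in every library, with 7979, 8455 and 8471 normalised reads in WT replicates 1 to 3 and 11507, 13684 and 12756 in Runx1 KO replicates 1 to 3. On the first principal component, which held 69.2% of the variance, Runx1 KO replicate 1 stood nearer to the WT libraries (22.8) than Runx1 KO replicates 2 and 3 did (64.5 and 60.8). For Alas2, Cpox, Gata1, Klf1, Hmox1 and the count of heme synthesis genes, fits without that library are given as well. For Slc4a1, the globins and Cybb, among others, they are not. In bulk RNA, fewer cells of a type and less RNA per cell cannot be told apart, and this applies to every value below.

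Alas2 had 597, 1501 and 679 normalised reads in WT replicates 1 to 3, and 186, 74.3 and 81.6 in Runx1 KO replicates 1 to 3. WT replicate 2 was the highest of the 6 libraries, Runx1 KO replicate 1 was the highest under its label, and the groups did not overlap. The means were 926 ± 500.3 and 114 ± 62.6 (SD, n = 3), so that 12.3% of the WT level was left. On the log2(value + 1) scale the change was -3.01 (SE 0.45, 95% interval -4.08 to -1.95), with a limma adjusted p of 0.00615. Across all genes tested, 11.3% were called lower, and 5.02% were called lower with a log2 change of at least 1 in size. Leaving out WT replicate 2 gave a log2 change of -2.60, and leaving out Runx1 KO replicate 1 gave -3.43; the call held in both fits, at limma adjusted p values of 0.0168 and 0.00353.

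Alas2 (ENSMUSG00000025270) lies on chromosome X from 150547375 to 150570638 on the plus strand, in GENCODE M21 on GRCm38. Apex2, a gene on the opposite strand, spans all of it and shares 311 bases of exon with it. The libraries were made with a stranded kit, but whether counting used the strand is not stated in the sources used here. Apex2 had means of 411 normalised reads in WT and 366 in Runx1 KO libraries.

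Promoter stretches are shown for Alas2, because it carries the fall, and for Cpox, because it had the highest log2 change of the 9 genes. Both are RefSeq sequences on GRCm38.p6, plus strand, from 250 bases before the RefSeq start up to that start or, for Alas2, to the first annotated exon. Capitals mark the letters GATA, which GATA factors bind and which read TATC on the other strand, and the letters CACCC, which KLF factors bind and which read GGGTG on the other strand.
Alas2, chrX:150547167-150547374: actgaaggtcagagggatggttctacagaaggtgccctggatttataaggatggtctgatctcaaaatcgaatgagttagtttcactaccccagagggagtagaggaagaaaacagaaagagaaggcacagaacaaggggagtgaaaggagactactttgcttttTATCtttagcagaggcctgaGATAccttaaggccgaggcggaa
Cpox, chr16:58669958-58670207: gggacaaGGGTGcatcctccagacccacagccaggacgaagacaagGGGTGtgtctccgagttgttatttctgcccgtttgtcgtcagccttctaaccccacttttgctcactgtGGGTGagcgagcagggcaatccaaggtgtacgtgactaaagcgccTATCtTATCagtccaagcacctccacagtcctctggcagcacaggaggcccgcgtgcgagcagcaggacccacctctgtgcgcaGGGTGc

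The full window of 250 bases held 2 GATA and 3 CACCC matches for Alas2, and 2 GATA and 4 CACCC matches for Cpox. The 208 bases printed for Alas2 held 2 GATA and 0 CACCC matches. Its CACCC matches thus reach past the start of the first annotated exon. Such matches are common: of 32851 windows of this length, 53.6% held GATA and 52.0% held CACCC, on either strand. The letters TGTGGT, which RUNX factors bind and which read ACCACA on the other strand, were in 14.0% of all windows. They were not in the windows of Alas2 or Cpox, which says only that these letters are not in these stretches. Windows on chromosome 18, where Fech lies, were left out of all these counts. RefSeq windows were used for 8 of the 9 genes, all but Fech, with 11 windows in all. Of these 11, 5 held GATA, 6 held CACCC and 1, that of Urod, held TGTGGT.

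**Figure D1:**
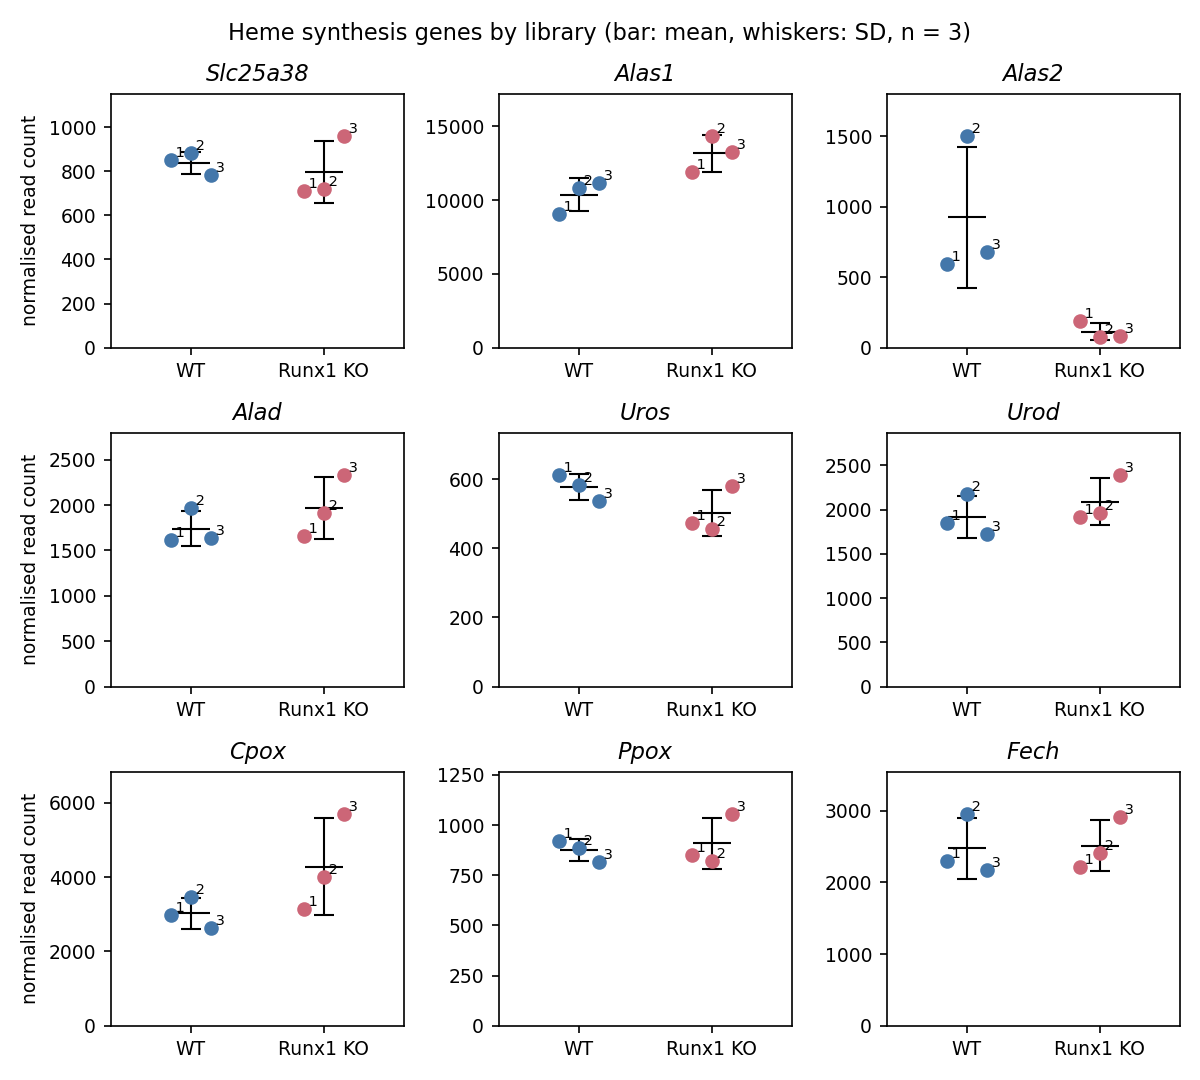
Normalised read count of each of the 9 heme synthesis genes in every library, on linear axes that start at 0. Points are libraries numbered by replicate, the bar is the mean and whiskers are the SD (n = 3). Alas2 is near 0 in the 3 libraries labelled Runx1 KO (74.3 to 186), while 7 of the other 8 genes have overlapping groups. The groups of Alas2 and Alas1 do not overlap, as in 43.3% of all genes tested.

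The housekeeping form was measured higher under the Runx1 KO label. Alas1 (ENSMUSG00000032786, chromosome 9, 106233455 to 106248654, minus strand) had 9082, 10845 and 11139 normalised reads in WT replicates 1 to 3 and 11879, 14345 and 13262 in Runx1 KO replicates 1 to 3. Its groups did not overlap either, with every Runx1 KO library above every WT library. The means were 10355 ± 1113 and 13162 ± 1236 (SD, n = 3), a ratio of 1.27 and a log2 change of 0.35 (SE 0.10, 95% interval 0.11 to 0.59). The limma adjusted p was 0.0513, just short of 0.05, so this difference is not called. It passed in 6 of 11 other settings that kept all libraries, where the adjusted p ran from 0.00878 to 0.0517. Groups that did not overlap were common in these data, in 43.3% of all genes tested, 21.9% with the Runx1 KO libraries lower and 21.4% with them higher. Stem and multipotent markers moved in the same libraries: of 12, 8 rose and none fell, where 10.6% of all genes tested were called higher. The summed level of these markers was 21893 to 26267 normalised reads in WT and 33736 to 38632 in Runx1 KO libraries. None of them was at 0 in all libraries, and their part in the level of Alas1 was not tested.

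Set against each other within a library, Alas2 and Alas1 moved far apart. The log2 ratio of Alas2 to Alas1 was -3.93, -2.85 and -4.04 in WT replicates 1 to 3 and -6.00, -7.59 and -7.35 in Runx1 KO replicates 1 to 3, a difference of -3.37. The groups did not overlap, and the exact permutation test gave a two-sided p of 0.1, the smallest that 3 libraries against 3 allow. Per kilobase of exon, Alas2 gave 14.4%, 26.2% and 13.5% of the summed ALAS level in WT replicates 1 to 3. It gave 3.87%, 1.31% and 1.56% of that sum in Runx1 KO replicates 1 to 3. The summed ALAS level itself was 2062 ± 332 normalised reads per kilobase in WT and 2179 ± 176 in Runx1 KO libraries (SD, n = 3), ranges that overlap.

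Slc25a38, the mitochondrial carrier for the glycine that ALAS consumes, did not pass the test. The gene (ENSMUSG00000032519, chromosome 9, 120110374 to 120124504, plus strand) had 850, 883 and 785 normalised reads in WT replicates 1 to 3 and 712, 718 and 961 in Runx1 KO replicates 1 to 3. Runx1 KO replicate 3 lay above every WT library and the other Runx1 KO libraries below them. The log2 change was -0.09 (SE 0.13, 95% interval -0.39 to 0.22), with a limma adjusted p of 0.658.

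**Figure D2:**
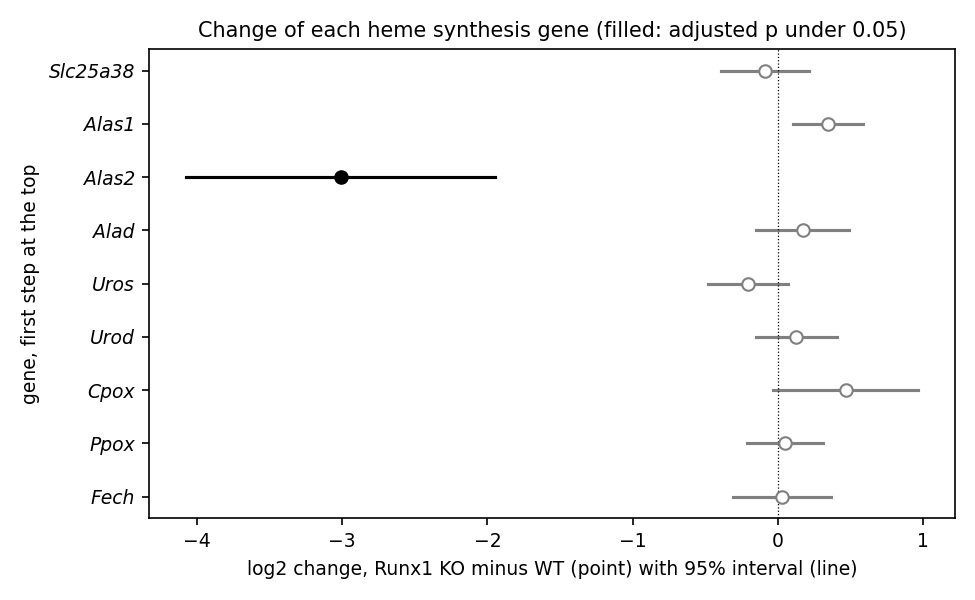
Log2 change from WT to Runx1 KO of the 9 genes in pathway order, with the 95% interval of each gene from limma, not adjusted for the number of genes. Alas2 sits at -3.01, and the other 8 genes lie between -0.20 and 0.47, none past an adjusted p of 0.05.

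None of the 3 cytosolic enzymes described here passed the test. Alad, which joins a pair of molecules of 5-aminolevulinate into porphobilinogen, had 1615, 1965 and 1637 normalised reads in WT replicates 1 to 3 and 1661, 1916 and 2332 in Runx1 KO replicates 1 to 3. Its groups overlapped, and its log2 change was 0.17 (SE 0.14, 95% interval -0.15 to 0.49, limma adjusted p 0.399). Uros, which closes the tetrapyrrole ring, was the least abundant of these enzymes in reads per kilobase in WT, with 612, 582 and 536 normalised reads there and 473, 456 and 580 in Runx1 KO libraries. It was the member with the lowest change after Alas2, -0.20 (SE 0.12, 95% interval -0.48 to 0.07), and only its Runx1 KO replicate 3 reached the WT range (limma adjusted p 0.244).

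Urod, which removes carboxyl groups from the ring, had 1845, 2177 and 1720 normalised reads in WT replicates 1 to 3 and 1916, 1958 and 2392 in Runx1 KO replicates 1 to 3. Its groups overlapped, with a log2 change of 0.13 (SE 0.12, limma adjusted p 0.476). Alad (ENSMUSG00000028393) and Urod (ENSMUSG00000028684) lie on chromosome 4, from 62509169 to 62519918 and from 116989965 to 116994413. Uros (ENSMUSG00000030979) lies on chromosome 7, from 133686243 to 133710072. All 3 are on the minus strand.

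Of the last enzymes, which act in mitochondria, Cpox varied most. Cpox, coproporphyrinogen oxidase (ENSMUSG00000022742, chromosome 16, 58670292 to 58717636, plus strand), had 2972, 3451 and 2634 normalised reads in WT replicates 1 to 3 and 3129, 3997 and 5700 in Runx1 KO replicates 1 to 3. Runx1 KO replicate 1 lay inside the WT range, and replicate 3 was the highest library. The Runx1 KO mean was 1.42 times the WT mean, a log2 change of 0.47 (SE 0.21, 95% interval -0.03 to 0.97). Cpox did not pass (limma adjusted p 0.156). Without Runx1 KO replicate 1 it passed, with a log2 change of 0.67 and a limma adjusted p of 0.0387. Without Runx1 KO replicate 3 the change was 0.24 (limma adjusted p 0.345).

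Ppox, the next oxidase (ENSMUSG00000062729, chromosome 1, 171275990 to 171281186, minus strand), had 922, 886 and 816 normalised reads in WT replicates 1 to 3 and 851, 822 and 1056 in Runx1 KO replicates 1 to 3. Its log2 change was 0.05 (SE 0.11, limma adjusted p 0.779), and its groups overlapped. B4galt3, on the opposite strand, shares 791 bases of exon with Ppox and had means of 826 normalised reads in WT and 609 in Runx1 KO libraries.

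Fech, ferrochelatase, the enzyme that inserts iron (ENSMUSG00000024588, chromosome 18, 64452914 to 64490251, minus strand), had 2295, 2959 and 2174 normalised reads in WT replicates 1 to 3 and 2223, 2408 and 2916 in Runx1 KO replicates 1 to 3. Its log2 change was 0.03 (SE 0.14, 95% interval -0.31 to 0.37, limma adjusted p 0.910). Set against this last enzyme, Alas2 was lower in every library labelled Runx1 KO. The log2 ratio of Alas2 to Fech was -1.94, -0.98 and -1.68 in WT replicates 1 to 3 and -3.58, -5.02 and -5.16 in Runx1 KO replicates 1 to 3. The difference of -3.05 had an exact two-sided permutation p of 0.1, again the smallest possible.

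As a list, 1 of the 9 genes passed the limma test (11.1%), where 21.9% of all genes tested did. By direction, 0 of the 9 were called higher, where 10.6% of all genes were. With edgeR 1 of the 9 passed as well, where 21.2% of all genes did, and with limma and the replicate number as a block 2 passed, where 24.9% of all genes did. The median log2 change of the 9 was 0.05, against -0.00424 over all genes tested. The list as a whole is not described as changed. The count was 2 in 6 of the 11 other settings that kept all libraries, with Alas1 as the added gene, and 3 without Runx1 KO replicate 1, with Alas1 and Cpox. Those 6 settings thus called 22.2% of the 9 genes, where 21.5% to 25.4% of all genes passed. The fit without Runx1 KO replicate 1 called 33.3% of them, where 22.7% of all genes passed.

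The order of the levels can be compared only per length of transcript, here normalised reads per kilobase of all annotated exons. In WT libraries Alas1 was highest at 1677 ± 180.3, followed by Alad at 930 ± 105, Urod at 739 ± 91.1 and Cpox at 453 ± 61.6 (SD, n = 3). Below them came Alas2 at 385 ± 208, Slc25a38 at 305 ± 18.2, Ppox at 194 ± 11.9, Fech at 179 ± 30.5 and Uros at 161 ± 10.7. Neighbours overlapped in their libraries from Cpox to Slc25a38 and from Ppox to Uros, and the remaining neighbours did not overlap.

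In Runx1 KO libraries neighbours overlapped from Alad to Cpox and from Ppox to Uros. Alas1 was again highest at 2132 ± 200.2 reads per kilobase and Alas2 moved to the last place at 47.5 ± 26.1, with Uros next above it at 141 ± 18.8. All 3 Alas2 values, up to 77.5, lay under the lowest Uros value of 127. With the length of the principal transcript in place of all exons, Alas2 held place 7 of 9 in WT and again place 9 in Runx1 KO libraries. The exon model of Fech, 13.8 kilobases in all, is the longest of the 9. Against the principal transcript, the exon model lowered the WT mean of Fech from 377 to 179 reads per kilobase and that of Ppox from 480 to 194.

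The spread within a label had an order that many of the 9 genes shared. Among the Runx1 KO libraries, replicate 3 was the highest for 7 of 9 genes, all but Alas1 and Alas2, and replicate 1 the lowest for 6. Among the WT libraries, replicate 2 was the highest for 6 of 9 genes and the lowest for none. Gata1, Klf1, Tal1 and Zfpm1, factors of red cell genes, were also lowest in Runx1 KO replicate 1 and highest in replicate 3 among these libraries. Klf1, a master factor among them, had 1516, 1990 and 3160 normalised reads in Runx1 KO replicates 1 to 3, and 1107, 1512 and 1226 in WT replicates 1 to 3. Alas2 differed from this order, with Runx1 KO replicate 1 highest. The part of these factors in the spread of the enzymes was not tested.

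Genes that tracked Alas2 most closely over the 6 libraries were the adult globins. Of 11191 genes with a mean of at least 100 normalised reads, the 4 with the highest Pearson correlation to Alas2 were Hbb-bs (r = 0.999), Hba-a1 (0.999), Hbb-bt (0.998) and Hba-a2 (0.997). The fifth was Atp5j2 (0.997), a subunit of ATP synthase, whose log2 change was -0.31 (SE 0.07, limma adjusted p 0.0195). These correlations over 6 libraries share the difference between the groups, and are a description of likeness without a test. Slc4a1, the anion exchanger of the red cell membrane, came in place 785 (r = 0.911).

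The globins fell as well. Hbb-bs, a beta chain, had 2880, 6052 and 3489 normalised reads in WT replicates 1 to 3 and 1062, 537 and 557 in Runx1 KO replicates 1 to 3. Its groups did not overlap, and its log2 change of -2.53 (SE 0.34) passed the test (limma adjusted p 0.00450). The log2 changes of Hbb-bt, Hba-a1 and Hba-a2 were -2.68, -2.18 and -2.51. These copies are so alike that the authors' counting could have left out the reads they share, or split them unevenly. Sums over the globins and ratios to them carry the same limit. Summed over the 4 genes, globins came to 10266 ± 4007 normalised reads in WT and 1929 ± 773 in Runx1 KO libraries (SD, n = 3).

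Alas2 was lower against the globins too. The log2 ratio of Alas2 to the summed globins was -3.61, -3.30 and -3.67 in WT replicates 1 to 3 and -3.92, -4.29 and -4.21 in Runx1 KO replicates 1 to 3. All Runx1 KO libraries lay below all WT libraries, by 0.61 on average, and the exact two-sided permutation p was 0.1, the smallest that can be reached. With 11 such ratios computed, none can pass a correction for their number. The SDs of this log2 ratio were 0.20 in WT and 0.19 in Runx1 KO libraries, where those of the log2 ratio of Alas2 to Alas1 were 0.65 and 0.86. Against Slc4a1 the groups overlapped: the log2 ratio of Alas2 to Slc4a1 was -1.58, 0.07 and -0.37 in WT replicates 1 to 3 and -1.91, -1.14 and -0.95 in Runx1 KO replicates 1 to 3 (difference -0.70, exact two-sided permutation p 0.3).

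**Figure D3:**
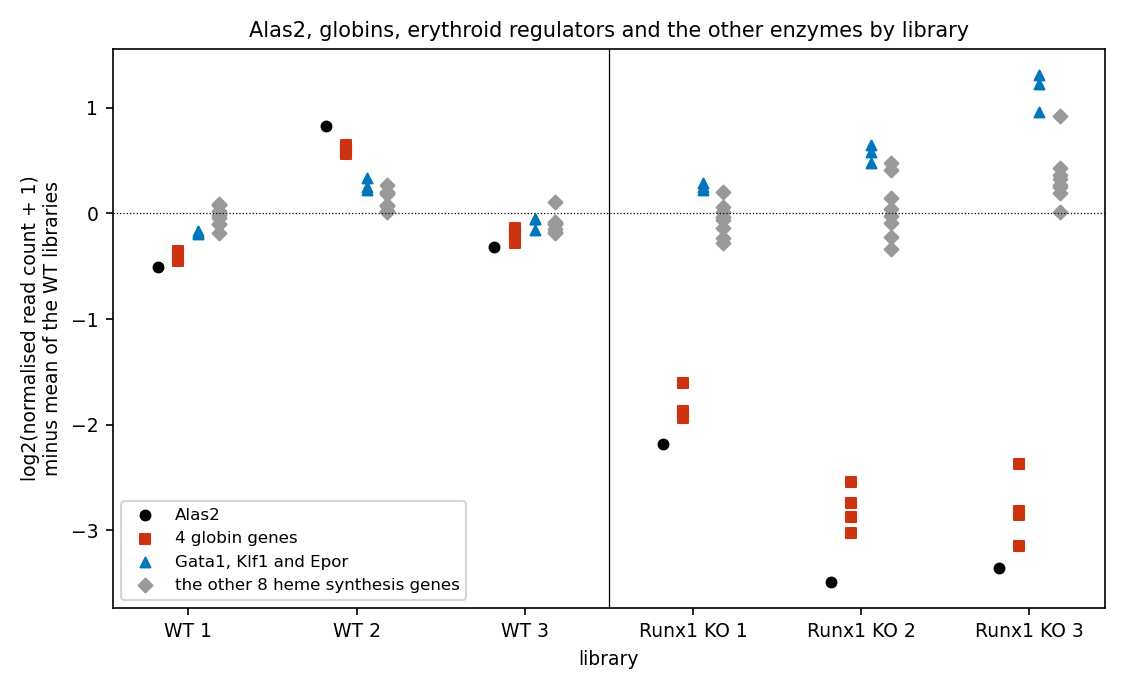
Log2(normalised read count + 1) of each gene minus its mean over the WT libraries, by library; each point is a gene. Alas2 and the 4 globin genes lie more than 1 below the WT mean in all 3 libraries labelled Runx1 KO. Gata1, Klf1 and Epor lie above it there, and the other 8 heme synthesis genes spread around it. Gata1, Klf1 and Epor were chosen from 13 early erythroid genes tested, of which 5 others were called higher. They did not pass (limma adjusted p 0.0628, 0.0816 and 0.107), and the groups of Epor overlapped. In that list Tfrc (-0.11) and Car1 (-0.05) had log2 changes below 0.

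The genes most like Alas1 were of another kind. The 5 with the highest correlation to Alas1 were Cnnm3 (r = 0.999), Kat2a (0.996), Cnot11, Noc2l and Pomt2 (from 0.995 down to 0.993), of which none passed the limma test. Pomt2 had the largest log2 change among them, 0.40 (SE 0.12, limma adjusted p 0.0518). Over the 6 libraries Alas1 had a correlation of 0.919 with Kit, in place 363 of 11191, and -0.790 with Hbb-bs. Gata1 (0.799) and Klf1 (0.787) also had positive correlations with Alas1. Kit was itself called higher, with a log2 change of 0.60 (SE 0.07, limma adjusted p 0.00346). These correlations too share the difference between the groups.

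Of 12 listed regulators of heme genes 11 were tested, 2 rose and 1 fell, with a median log2 change of 0.11. These calls are 27.3% of the regulators tested, where 21.9% of all genes tested were called. Zfpm1, the GATA1 cofactor FOG1, had means of 2904 ± 132 in WT and 5431 ± 867 normalised reads in Runx1 KO libraries (SD, n = 3). It rose, with a log2 change of 0.89 (SE 0.12, limma adjusted p 0.00381). Tal1, a partner of GATA1, rose by 0.72 (SE 0.15, limma adjusted p 0.0188), a call that was lost in 3 of 6 fits that left out a library, those without WT replicates 1 and 3 and Runx1 KO replicate 2 (limma adjusted p 0.0508 to 0.0661).

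Gata1 itself had 1399, 1840 and 1517 normalised reads in WT replicates 1 to 3 and 1917, 2187 and 3054 in Runx1 KO replicates 1 to 3. Its groups did not overlap, but it missed the threshold with a log2 change of 0.57 (SE 0.18, limma adjusted p 0.0628). Klf1 changed by 0.74 (SE 0.26, limma adjusted p 0.0816) and also missed it, and both passed without Runx1 KO replicate 1 (limma adjusted p 0.0310 and 0.0239). With all libraries kept, both passed with DESeq2 (adjusted p 0.00872 and 0.00753) and with the replicate number as a block in limma (0.0383 and 0.0419) or edgeR (0.0367 and 0.0417). Gata1 also passed in limma with scaling by library totals (adjusted p 0.0395). The log2 ratio of Alas2 to Gata1 differed by -3.60 between the groups, with no overlap (exact two-sided permutation p 0.1, the smallest possible).

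Bach2, a repressor that binds heme, was the 1 regulator tested that fell. Its means were 1436 ± 1145 in WT and 223 ± 36.6 in Runx1 KO libraries (normalised reads, SD, n = 3), with a log2 change of -2.38 (SE 0.53, limma adjusted p 0.0216). WT replicate 1 alone had 2723 normalised reads, against 530 and 1055 in WT replicates 2 and 3, and without it the change was -1.76 (limma adjusted p 0.0171). The call was lost without WT replicate 3 or Runx1 KO replicate 2 or 3, and with limma-voom (adjusted p 0.0553 to 0.0808 over these 4 fits). Bach2 is also a B cell gene. Of 11 B cell markers 7 fell and none rose, where 11.3% of all genes tested were called lower. Their summed level was 7641 to 33466 normalised reads in WT libraries, highest in replicate 1, and 1251 to 3492 in Runx1 KO libraries. None of the 11 was at 0 in all libraries, and their part in the fall of Bach2 was not tested.

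Of 19 listed genes for transport of heme precursors and the iron-sulfur clusters that ferrochelatase needs, 18 were tested. Their median log2 change was -0.00803. They gave 1 call, or 5.56%, where 21.9% of all genes tested were called. The gene was Fam210b, a mitochondrial protein gene linked to erythroid iron use, with 503, 453 and 458 normalised reads in WT replicates 1 to 3 and 643, 579 and 656 in Runx1 KO replicates 1 to 3. It rose by 0.41 (log2, SE 0.09, limma adjusted p 0.0213), a call lost without WT replicate 2 or 3 or Runx1 KO replicate 3 (limma adjusted p 0.0606 to 0.0807). Mitoferrin, the mitochondrial iron importer encoded by Slc25a37, had a log2 change of 0.24 (SE 0.08, limma adjusted p 0.0779). Tmem14c, a carrier of the last porphyrins, had -0.28 (SE 0.09, limma adjusted p 0.0730), and Abcb10, a mitochondrial transporter that aids the pathway, had -0.20 (SE 0.14, limma adjusted p 0.318). The groups of Slc25a37 and Tmem14c did not overlap, as in 43.3% of all genes tested. With all libraries kept, Slc25a37 passed in limma with scaling by library totals (adjusted p 0.0254), and Tmem14c passed with DESeq2 (adjusted p 0.0343).

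Heme breakdown and export gave 1 call in 8 genes tested of 10 listed, or 12.5%, where 21.9% of all genes tested were called. Hmox1, the heme oxygenase induced by heme, had 1923, 3810 and 3525 normalised reads in WT replicates 1 to 3 and 1201, 1055 and 1962 in Runx1 KO replicates 1 to 3. Its log2 change was -1.12 (SE 0.31, limma adjusted p 0.0439), with Runx1 KO replicate 3 just above the lowest WT library. This call was lost without WT replicate 2 or 3 or Runx1 KO replicate 1 or 2 (limma adjusted p 0.0878 to 0.142), and with scaling by library totals (0.0534). Macrophages carry Hmox1 too: of 12 monocyte and macrophage markers 3 fell and 1 rose, where 21.9% of all genes tested were called. The summed levels of these markers were 64650 to 73055 normalised reads in WT and 58922 to 73864 in Runx1 KO libraries. Their part in the fall of Hmox1 was not tested.

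Of 14 listed proteins that carry heme or partner a heme-bearing chain, 11 were tested, 4 fell and 1 rose. That is 45.5% called, where 21.9% of all genes tested were called. Cybb, the heme-bearing chain of the phagocyte oxidase, fell by 2.01 on the log2 scale (SE 0.28, limma adjusted p 0.00455), and its partner Cyba by 0.84 (SE 0.11, limma adjusted p 0.00378). Epx, eosinophil peroxidase, fell by 1.34 (SE 0.27, limma adjusted p 0.0158, and 0.0596 without Runx1 KO replicate 2), and Cycs, cytochrome c, by 0.46 (SE 0.07, limma adjusted p 0.00583). Tbxas1, thromboxane synthase, rose by 0.62 (SE 0.08, limma adjusted p 0.00463).

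Myeloperoxidase, the most abundant heme protein transcript of the list in reads, did not pass. Mpo had 72943, 81448 and 70662 normalised reads in WT replicates 1 to 3 and 68650, 69534 and 66191 in Runx1 KO replicates 1 to 3, a log2 change of -0.14 (SE 0.08, limma adjusted p 0.233). Neutrophil markers moved in the same libraries, as 9 of 12 fell and none rose, where 11.3% of all genes tested were called lower. Their median log2 change was -1.57. Their summed level was 319712 to 402361 normalised reads in WT and 159934 to 219397 in Runx1 KO libraries, none was at 0 in all libraries, and their part in the falls of Cybb and Cyba was not tested.

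Alas2 is itself a gene of maturing red cells, and markers of early and late erythroid cells had different medians. Of 13 early erythroid genes tested 5 rose and none fell (Gfi1b, Tal1, Zfpm1, Lmo2 and Ldb1), with a median log2 change of 0.57. Their summed level was 46939 to 60670 normalised reads in WT and 55087 to 85106 in Runx1 KO libraries. Within this list Tfrc (-0.11) and Car1 (-0.05) had log2 changes below 0 and were not called. Megakaryocyte genes moved in the same libraries: of 10 tested 7 rose and none was called lower, with a median log2 change of 1.01. Pf4 went the other way without being called (log2 change -0.89, limma adjusted p 0.0782). Ppbp (1.42) and Itgb3 (0.09) were above 0 and not called. The part of megakaryocytes in the rise of the early list was not tested. Of all genes tested 10.6% were called higher and 11.3% lower. Of 14 late erythroid genes 6 fell (the 4 globins, Slc4a1 and Bpgm) and 1 rose (Aqp1), with a median of -0.52. Their summed level was 20741 to 34471 in WT and 20098 to 30403 in Runx1 KO libraries, and none of these genes was at 0 in every library.

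Membrane genes of the late list did not move as one. Slc4a1 had 1781, 1435 and 876 normalised reads in WT replicates 1 to 3 and 699, 164 and 157 in Runx1 KO replicates 1 to 3, a log2 change of -2.31 (SE 0.58, limma adjusted p 0.0317, edgeR adjusted p 0.0591). Aqp1, the water channel, had means of 6310 ± 1232 and 12580 ± 3085 normalised reads (SD, n = 3) and rose by 0.99 (log2, SE 0.20, limma adjusted p 0.0152). The erythroid lists overlap with the regulators in Gata1, Klf1, Tal1 and Zfpm1. The part of a change in cell types in the fall of Alas2 was not tested.

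**Figure D4:**
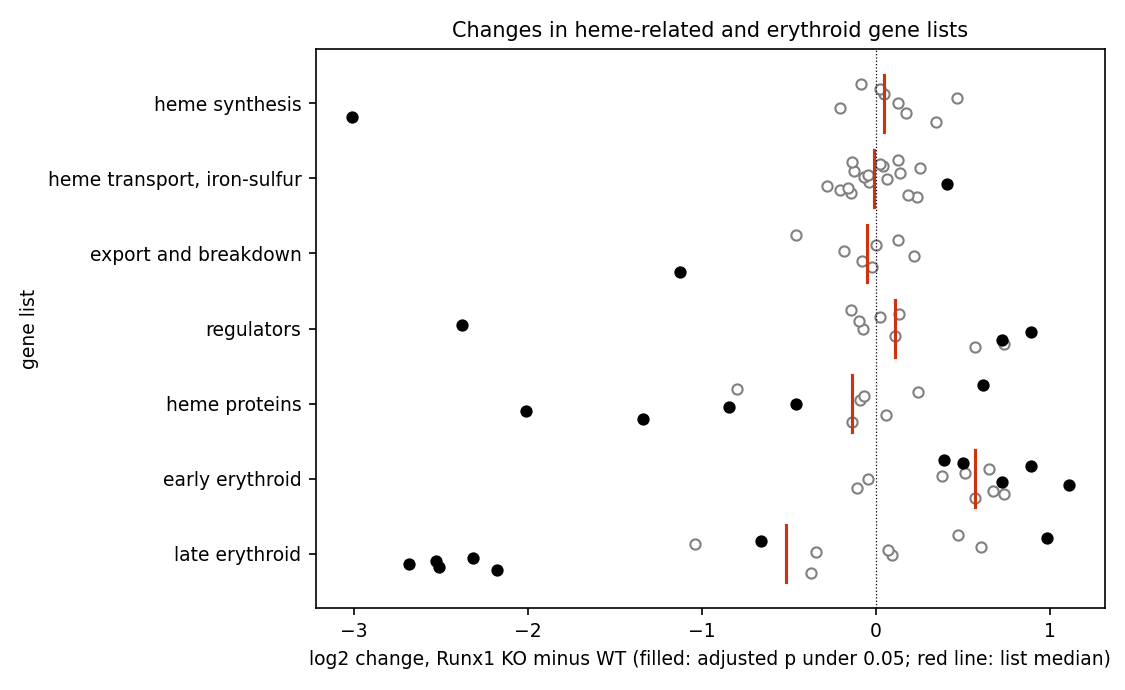
Log2 change of each tested gene, from WT to Runx1 KO, in the heme-related lists and in the early and late erythroid lists. Filled points passed a limma adjusted p of 0.05 and the red line is the list median. Alas2, at -3.01, is the only filled point among the heme synthesis genes.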

How the data were processed

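RNA of 6 libraries of c-Kit+ bone marrow cells was measured by poly-A RNA sequencing. Per the submitters' processing notes, HISAT2 and HTSeq 0.9.1 were used, with the builds mm10 and GRCm38. The annotation and the strand setting are not given in the sources used here. The values the authors deposited are a normalised signal. Their steps show read counts per gene, each scaled by 1 factor per library, since 100% of values in each file are whole multiples of 1 smallest step (0.959 to 1.05, tolerance 0.001), while only 0.0768% to 0.137% of positive values are whole before that division. These multiples are the recovered reads. A count of 0 allows up to 3 reads, or 2.88 to 3.14 normalised reads, which covers counting error only.

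Symbols came from a table of Ensembl identifiers, which matched 20077 of 20097, and exon lengths and positions from GENCODE M21. Genes passing filterByExpr (minimum count 10, minimum total 15) were fitted with limma 3.58.1 in R 4.3.3 on log2(value + 1), with a mean trend, the group as the only term and Benjamini-Hochberg adjustment over 15410 genes. A log2 change on this scale understates the change of low genes. The script was tested on simulated data. Added fits on recovered reads used edgeR 4.0.16, DESeq2 1.42.0 and limma-voom. Context genes were named when past an adjusted p of 0.05, up to 5 a list by smallest p, with 6 fixed genes of the pathway; Mpo, Slc4a1, Aqp1 and the globins were chosen from the marker lists after their values were seen. The members and lists were chosen with earlier results of these data known. A further enzyme of the pathway is not reported here.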

Additional observations from a re-analysis of the deposited data

How the results depend on the processing

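The fall of Alas2 kept its call in all 11 other settings with all libraries (log2 change -3.02 to -2.93, against -3.01) and in all 6 fits without a library (-3.43 to -2.60). The count of the 9 genes past the threshold, 1 as reported, was 2 with DESeq2, limma-voom, TMM in limma, library totals in limma, the replicate block in limma and the replicate block in edgeR. It ran from 1 to 3 over the fits without a library, with 3 without Runx1 KO replicate 1 (33.3% of the 9, against 22.7% of all genes in that fit). Without WT replicate 1 and Runx1 KO replicate 1 together, a setting chosen after seeing the data, it was 2, and Alas2 changed by -3.68. Small changes reversed when a library was left out. Fech, at 0.03, ran from -0.0843 to 0.162 over these fits, at -0.0210 without WT replicate 1, -0.0602 without WT replicate 3 and -0.0843 without Runx1 KO replicate 3. Ppox, at 0.05, ran from -0.0628, without Runx1 KO replicate 3, to 0.118, without Runx1 KO replicate 2. The cause was not tested.

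Over all genes, 3370 passed (1631 higher), and 1367 to 3597 without a library, the lowest without Runx1 KO replicate 2. Without WT replicate 2 and Runx1 KO replicate 3 the counts were 2208 and 1767. The cause was not tested. Of the context genes 10 passed, and 6 to 11 without a library, with 6 without WT replicate 3 and 6 without Runx1 KO replicate 2. Scaling by library totals shifted the median of all genes by 0.08 upwards, and 63.5% of 3755 calls were then higher, against 48.4%; of the context genes 8 were then higher and 5 lower, against 4 and 6.

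The replicate numbers are shared between the groups by the titles alone. Deviations of same-numbered libraries correlated at 0.287, 0.129 and -0.0104, so the numbers are not taken to pair the libraries, and not every library correlated best with its own number. With the replicate number as a block limma called 3843 genes, 2 of the 9 genes (Alas2 and Alas1, adjusted p 0.00827 and 0.00954) and 13 context genes.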
